A study of Mus musculus with 27 samples.

Results

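The genes followed here are 10 genes of insulin and glucagon signalling in mouse liver, taken as a named list: the insulin receptor Insr, the docking proteins Irs1 and Irs2, the phosphoinositide 3-kinase subunit Pik3r1, the kinase Akt2, the forkhead factors Foxo1 and Foxo3, the glucagon receptor Gcgr, the membrane-bound factor Creb3l3 and the pseudokinase Trib1. All 10 were found by symbol among 51826 listed genes, and all 10 were among the 16428 genes with enough counts to be tested. The list was not built from a threshold on these measurements, but it was chosen with earlier results of these data known.

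Whole livers of wild-type Balb/C mice, an inbred strain, were profiled by bulk RNA sequencing at 7 stages of a reproductive cycle, with 1 library per animal. NUL denotes nulliparous, non-pregnant mice (n = 4) and LAC mice at lactation day 10 (n = 3). Mice at 2, 4, 6 and 8 days after weaning, called involution days in the labels, are ID2 (n = 3), ID4 (n = 4), ID6 (n = 6) and ID8 (n = 3), and mice at 4 weeks after weaning are REG (n = 4). Mice were bred when 10 to 12 weeks old, litter size was equalised, pups of the involution and REG groups were removed at 10 to 14 days of lactation, and animals were matched for age. The labels name no transgene and no drug, and food intake and the hour of collection are not given in the sources used here. Livers were frozen and ground whole, so RNA of every cell type in the organ was measured together, and fewer cells of a type cannot be told apart from less RNA per cell.

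Estimated counts totalled 41120650 to 75664540 per library, and the lowest total was in ID8. All 8 hepatocyte markers of the check list were detected, with a summed level of 92560 to 228200 CPM (a gene's count relative to its library's total, after scaling between libraries). Pancreas enzyme transcripts stood out in the library ID2_31, at a sum of 1943 CPM, and in ID4_15, at 151.9 CPM. Animal numbers in the titles were under 200 for 7 animals, comprising all 3 of ID8, 2 of 3 in ID2 and 2 of 4 in ID4, and the labels do not say what the numbers mark. Sequencing used 2 runs for 16 libraries and 1 run for 11.

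Insulin binds its receptor, a tyrosine kinase, which phosphorylates Irs proteins; these recruit phosphoinositide 3-kinase and lead to activation of Akt. In the liver Akt phosphorylates Foxo factors and keeps them out of the nucleus, which lowers transcription of gluconeogenic genes such as Pck1 and G6pc, while insulin raises the lipogenic genes. Glucagon acts through Gcgr, a receptor coupled to adenylyl cyclase, and raises gluconeogenesis in fasting. Most of this signalling runs through phosphorylation, which RNA levels do not measure.

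In GRCm38 (GENCODE M21) all 10 members are protein-coding. Gcgr spans 120530699 to 120538986 on chromosome 11 (plus strand, ENSMUSG00000025127), and Creb3l3 spans 81084324 to 81098874 on chromosome 10 (minus strand, ENSMUSG00000035041). Foxo1 spans 52268336 to 52353221 on chromosome 3 (plus strand, ENSMUSG00000044167), Foxo3 spans 42181841 to 42276755 on chromosome 10 (minus strand, ENSMUSG00000048756), and Trib1 spans 59648350 to 59657099 on chromosome 15 (plus strand, ENSMUSG00000032501). The others are Insr (chromosome 8, 3122061 to 3279617), Irs1 (chromosome 1, 82233101 to 82291416), Irs2 (chromosome 8, 10984681 to 11008458), Akt2 (chromosome 7, 27591552 to 27640826) and Pik3r1 (chromosome 13, 101680563 to 101768217). Exons of Irs1, Irs2 and Foxo1 overlap exons of a gene on the opposite strand (Gm9747, 9530052E02Rik and Gm20402). The use of strand in counting is not given in the sources used here, so how reads of these pairs were assigned is not known. Counts of Irs1 and Akt2 were fractional (over 0.001 from a whole number) in all 27 libraries and those of Foxo1 in 23, so these values also depend on how shared reads were divided. Those of Irs2 were whole numbers in every library.

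The promoters of the pair that fell together in lactation, Gcgr and Creb3l3, and of the pair that rose together at ID2, Foxo1 and Foxo3, are printed so that their letters can be set beside those changes. They come from a table of RefSeq promoters (GRCm38.p6), in which 13 promoters were matched to 8 of the 10 members; Insr and Trib1 were not matched in that table. Each runs 5′ to 3′ on the gene's strand, from 250 bases before a start site to 50 after it. The regions are chr11:120530477-120530776 (plus strand) for Gcgr, chr10:81098823-81099122 (minus strand) for the outer start of Creb3l3, chr10:81092542-81092841 (minus strand) for its inner start, chr3:52268087-52268386 (plus strand) for Foxo1 and chr10:42276646-42276945 (minus strand) for Foxo3. Capitals mark TGACG on either strand, the short form of the cyclic AMP response element TGACGTCA; on the opposite strand it reads CGTCA.
Gcgr: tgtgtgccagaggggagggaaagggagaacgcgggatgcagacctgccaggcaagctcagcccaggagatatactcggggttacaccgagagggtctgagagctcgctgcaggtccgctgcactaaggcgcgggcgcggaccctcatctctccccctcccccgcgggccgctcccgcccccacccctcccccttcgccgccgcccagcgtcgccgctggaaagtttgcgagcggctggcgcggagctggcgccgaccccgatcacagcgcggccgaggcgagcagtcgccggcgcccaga
Creb3l3, outer start: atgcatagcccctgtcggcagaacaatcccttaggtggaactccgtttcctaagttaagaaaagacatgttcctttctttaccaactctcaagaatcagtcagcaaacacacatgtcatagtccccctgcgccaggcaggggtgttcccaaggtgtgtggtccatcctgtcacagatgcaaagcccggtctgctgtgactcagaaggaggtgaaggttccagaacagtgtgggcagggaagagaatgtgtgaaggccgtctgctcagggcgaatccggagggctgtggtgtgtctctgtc
Creb3l3, inner start: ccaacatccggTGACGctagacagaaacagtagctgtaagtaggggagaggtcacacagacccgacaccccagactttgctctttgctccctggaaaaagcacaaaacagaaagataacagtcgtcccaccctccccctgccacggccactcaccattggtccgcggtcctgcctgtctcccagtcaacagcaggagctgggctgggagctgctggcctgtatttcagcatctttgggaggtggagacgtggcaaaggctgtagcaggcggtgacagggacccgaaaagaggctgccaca
Foxo1: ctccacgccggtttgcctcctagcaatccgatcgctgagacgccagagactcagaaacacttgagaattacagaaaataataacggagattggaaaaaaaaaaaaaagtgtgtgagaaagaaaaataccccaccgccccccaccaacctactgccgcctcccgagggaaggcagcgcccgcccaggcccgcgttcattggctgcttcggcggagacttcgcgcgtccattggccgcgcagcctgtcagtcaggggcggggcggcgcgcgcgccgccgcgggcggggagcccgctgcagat
Foxo3: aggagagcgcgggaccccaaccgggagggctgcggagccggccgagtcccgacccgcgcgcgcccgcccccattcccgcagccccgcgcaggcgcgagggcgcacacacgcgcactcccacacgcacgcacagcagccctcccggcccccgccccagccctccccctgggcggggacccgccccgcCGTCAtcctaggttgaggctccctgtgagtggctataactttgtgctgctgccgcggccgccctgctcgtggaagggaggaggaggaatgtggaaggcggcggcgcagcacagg

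The letters of 4 motifs were searched on both strands. The forkhead motif GTAAACA and the full element TGACGTCA were found in none of the 13 member promoters, and they occur in 3.65% and 1.79% of 32851 promoters of the same length. TGACG, which is also part of the full element, lies at -239 to -235 from the inner start of Creb3l3 and at -64 to -60 from the start of Foxo3. It was also found for Irs1, Akt2 and Pik3r1 and occurs in 20.8% of all promoters. The E-box CACGTG, the site of clock and carbohydrate-response factors, was found for Irs1 from -115 and for Irs2 from -44, and in 7.15% of all promoters. A match describes letters only.

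The glucagon side stood far above the Foxo factors and the docking proteins in level. On the TPM scale (a transcript abundance that allows for gene length and so permits comparison between genes), the NUL libraries held Creb3l3 at 190 to 237 TPM, Gcgr at 136 to 156 TPM and Akt2 at 49.1 to 54.9 TPM, and these ranges did not overlap. Insr followed at 15.3 to 18.3 TPM and Pik3r1 at 10.3 to 15.5 TPM, which touch within the spread of the libraries. Trib1, Foxo3 and Irs2 overlapped one another, at 4.79 to 14.6, 5.89 to 9.61 and 4.53 to 9.70 TPM. Foxo1, at 2.8 to 3.57 TPM, and Irs1, at 2.41 to 3.12 TPM, were lowest and overlapped too.

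**Figure D1:**
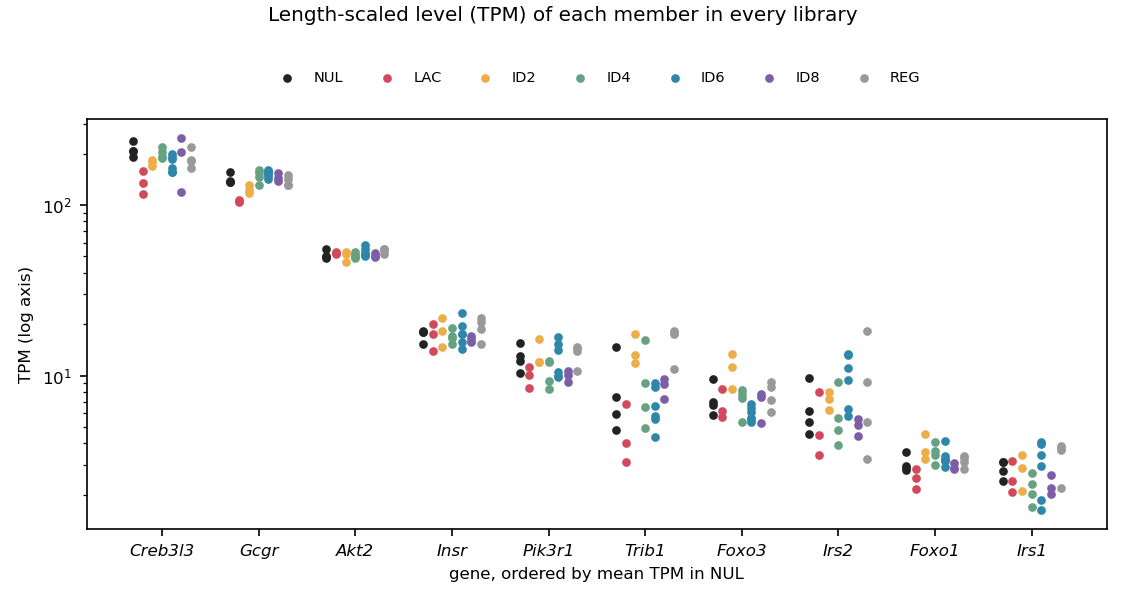
TPM of each of the 10 genes (log axis, 1 point per library, coloured by stage), with genes ordered by their mean in NUL. Creb3l3 and Gcgr lie highest at every stage, with Akt2 below them, and Foxo1 and Irs1 lie lowest in NUL, at 2.8 to 3.57 and 2.41 to 3.12 TPM.

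Tested for any difference among the 7 stages, 4 of the 10 members passed: Foxo3 (adjusted p = 5.18e-05), Gcgr (0.00185), Trib1 (0.0106) and Foxo1 (0.0131). Of all genes tested, 27% passed the same test, which would give 2.7 of 10. The list was chosen with earlier results of these data known, so no excess over all genes is read from this count. All adjusted p values are from edgeR's quasi-likelihood test with Benjamini-Hochberg adjustment over all genes tested, two-sided, and a gene is called below 0.05. Creb3l3 had an adjusted p of 0.0809 in this test and Pik3r1 one of 0.195. Insr, Irs1, Irs2 and Akt2 had adjusted p values of 0.462, 0.524, 0.489 and 0.605.

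The span of the stage means in CPM was widest for Trib1, 3.24-fold from LAC to REG, and then for Foxo3, 1.86-fold from ID6 to ID2. Akt2 had the narrowest span, 1.10-fold, and Insr followed at 1.14-fold. Irs2 had a span of 1.79-fold between stage means, but single libraries of all stages ranged over 5.35-fold. These spans describe the extremes among 7 stages and carry no test.

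**Figure D2:**
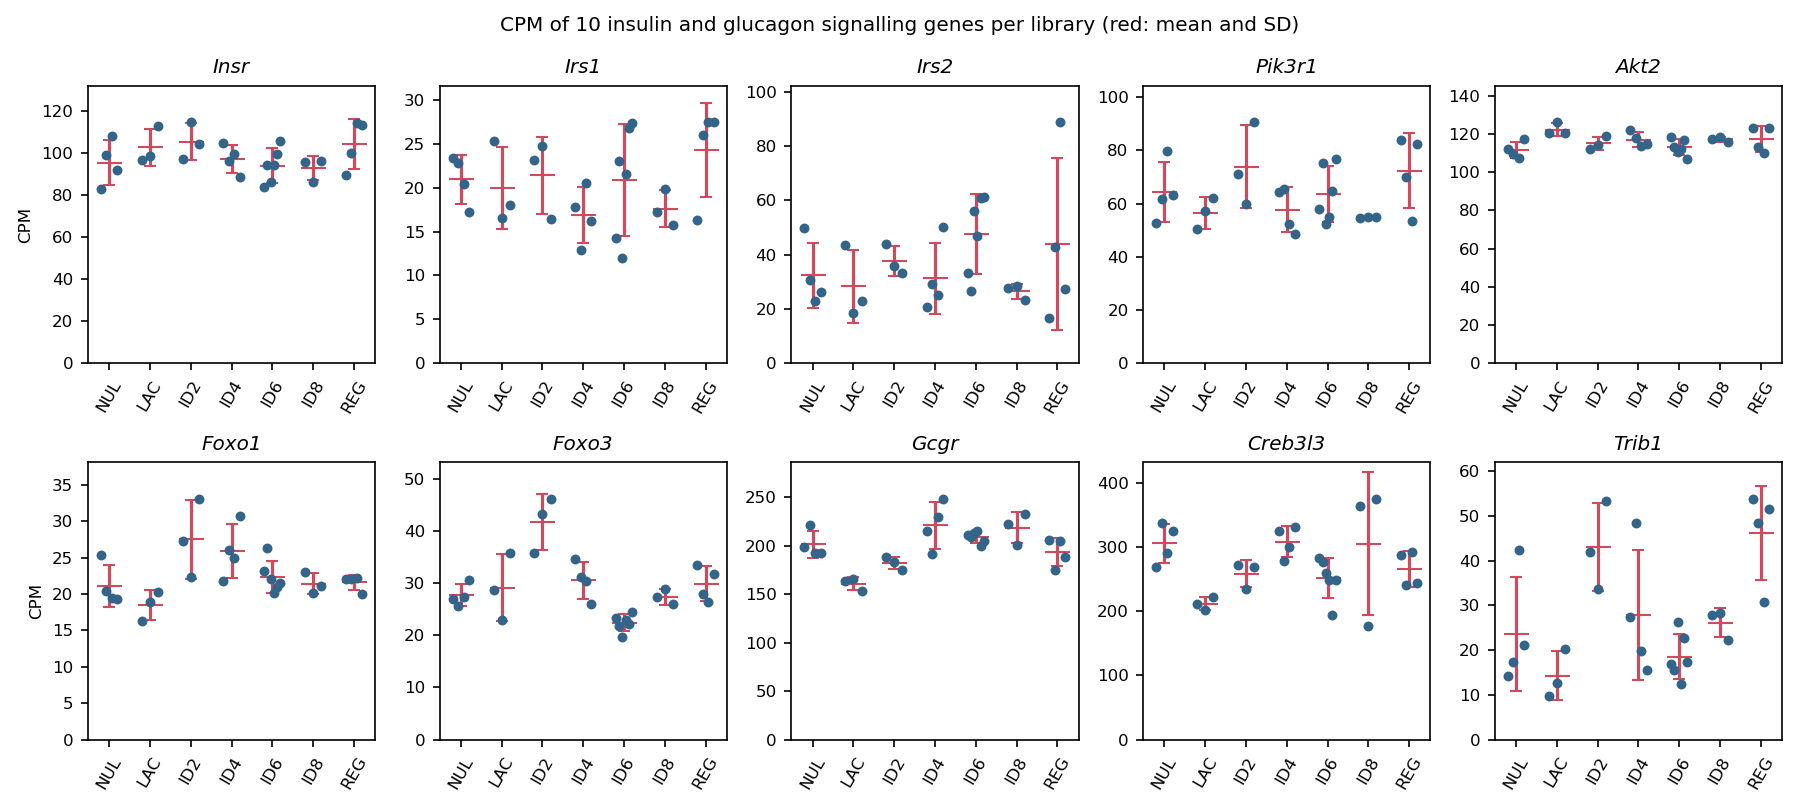
CPM of the 10 genes in every library (blue points) with the mean and SD of each stage (red), from NUL to REG. The 3 LAC libraries of Gcgr, at 153 to 166 CPM, lie below all other libraries, and the 3 ID2 libraries of Foxo3, at 35.7 to 46.2 CPM, lie at the top; Irs1, Irs2 and Trib1 vary widely within stages.

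In lactation the glucagon receptor and Creb3l3 were both lower than in nulliparous liver, and no member of the insulin arm passed the test. Gcgr fell from 201.4 ± 13.7 CPM (SD, n = 4) in NUL to 161 ± 7.05 CPM in LAC (n = 3), and Creb3l3, which drives genes of fat and acute-phase metabolism in hepatocytes, fell from 306 ± 30.96 to 212 ± 10.1 CPM. These 2 of 10 members were called, both lower, where 11.2% of all genes were called. The median log2 fold change was -0.19 over the members and -0.01 over all genes.

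Gcgr read 199, 221.3, 193 and 192 CPM in the NUL libraries and 164, 166 and 153 CPM in the LAC libraries. Every LAC library lay below every NUL library. The log2 difference was -0.32 (SE 0.08, edgeR adjusted p = 0.0123). Creb3l3 read 269.9, 338, 292 and 325 CPM in NUL and 202.4 to 222.6 CPM in the 3 LAC libraries, again without overlap, and differed by -0.53 on the log2 scale (SE 0.17, edgeR adjusted p = 0.0369).

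Both calls depend on single animals. The Gcgr call was lost without LAC_240 (edgeR adjusted p = 0.0699) and without NUL_221 (0.0585), and Creb3l3 missed the threshold in 6 of 7 fits that left out 1 liver (edgeR adjusted p = 0.0558 to 0.133), holding only without NUL_220 (0.0355). With the clock genes as a covariate the Creb3l3 adjusted p was 0.0729.

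Markers of other liver cells moved in the same comparison. Of the Kupffer cell list, 5 of 7 markers were lower in LAC, with a summed level of 239.3 to 341 CPM against 354.5 to 457 in NUL, and of the stellate cell list 4 of 7, at 168 to 178 against 219.9 to 285.5 CPM. The endothelial list had 1 of 7 lower, at 222 to 256.5 against 281 to 321 CPM, the lymphocyte list 3 of 7, at 6.40 to 9.83 against 12.7 to 15.2 CPM, and the bile duct list 2 of 5 tested. Hepatocyte markers summed to 183800 to 228200 CPM in LAC against 97240 to 126200 in NUL, with 1 of 8 called higher and 1 lower. Most of that sum is the albumin gene Alb, at a mean log2 CPM of 16.57 over all libraries, where the next highest marker, Ttr, had 12.61. The median log2 fold change of the 8 markers was 0.14. None of these markers was at 0 in all libraries, and their part in the falls of Gcgr and Creb3l3 was not tested.

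Of the other members in lactation, Akt2, the main Akt form in insulin-responsive tissue, read 107 to 117 CPM in NUL and 120.4 to 126 CPM in LAC without overlap, but its difference of 0.13 on the log2 scale (95% interval 0.00 to 0.26) had an adjusted p of 0.210. Insr differed by 0.11 (95% interval -0.10 to 0.31), Irs1 by -0.07 (-0.59 to 0.44), Irs2 by -0.19 (-1.14 to 0.76) and Pik3r1 by -0.19 (-0.53 to 0.15). The Foxo factors differed by -0.19 for Foxo1 (95% interval -0.45 to 0.06) and by 0.07 for Foxo3 (-0.17 to 0.32), and Trib1 by -0.73 (-1.55 to 0.09). In fits without 1 animal the values ran from -0.27 to -0.07 for Pik3r1, from -0.27 to -0.09 for Foxo1 and from 0.03 to 0.17 for Insr. The Trib1 value was -0.29 without NUL_226, and it was called with the clock covariate (-1.01, edgeR adjusted p = 0.0414). Changes of the size seen for Creb3l3 thus lie inside the interval of Irs1, Irs2, Pik3r1 and Trib1 and outside that of Insr, Akt2 and both Foxo factors.

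At 2 days after weaning both Foxo factors and Trib1 were higher than in lactation. Foxo1 rose from 18.5 ± 2.01 to 27.6 ± 5.42 CPM (SD, n = 3 and 3), Foxo3 from 29.1 ± 6.43 to 41.7 ± 5.39 CPM and Trib1, a scaffold that brings C/EBP alpha to the ubiquitin ligase Cop1, from 14.3 ± 5.44 to 43.0 ± 9.85 CPM. These 3 of 10 members were called, all higher, where 16.1% of all genes were called in ID2 against LAC. The median log2 fold change was 0.34 over the members and 0.02 over all genes. This comparison shares the LAC libraries with the one before.

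Foxo1 read 16.3, 18.9 and 20.3 CPM in LAC and 27.2, 22.3 and 33.1 CPM in ID2 (animals ID2_224, ID2_31 and ID2_39), and all ID2 libraries lay above all LAC libraries. Its log2 difference was 0.57 (SE 0.13, edgeR adjusted p = 0.00420), and the call held in all 6 fits without 1 animal, the largest adjusted p being 0.0484. Foxo3 read 28.7, 22.8 and 35.68 CPM in LAC and 35.73, 43.2 and 46.2 CPM in ID2, so the groups met at LAC_240 and ID2_224 without crossing. Its log2 difference was 0.52 (SE 0.13, edgeR adjusted p = 0.00657), lost without LAC_213 (0.0684) and with only the groups compared in the fit (0.52, 0.0578). In that last fit Creb3l3 was called (0.29, edgeR adjusted p = 0.0452). Trib1 read 9.78, 12.7 and 20.3 CPM in LAC and 41.9, 33.8 and 53.4 CPM in ID2, without overlap. Its log2 difference was 1.59 (SE 0.42, edgeR adjusted p = 0.0137), and the threshold was missed in 3 of 6 fits that left out 1 liver, those without LAC_200 (0.0657), LAC_213 (0.0632) and ID2_39 (0.0554).

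Against NUL the ID2 livers had 1 of 10 members called, Foxo3, where 3.24% of all genes were called. Foxo3 read 26.9, 25.6, 27.4 and 30.6 CPM in NUL, below each of the 3 ID2 libraries, a log2 difference of 0.59 (SE 0.12, edgeR adjusted p = 0.00483). Without ID2_39 the adjusted p was 0.0537. On the TPM scale the groups overlapped, NUL_227 reading 9.61 TPM and ID2_224 8.29 TPM, and the call was lost on log2(TPM + 1) (0.52, limma adjusted p = 0.114) and on log2(TPM + 0.1) (0.57, 0.120). Foxo1 was 0.38 higher on the log2 scale (edgeR adjusted p = 0.0864), with 0.23 without ID2_39 (0.506) and a call without NUL_220 (0.0340), and Trib1 0.86 higher (0.247), and in both genes the ID2 range overlapped NUL. The library NUL_226 held 42.4 CPM of Trib1, against 14.1 to 21.1 CPM in the other 3.

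Clock genes and title numbers moved with the ID2 result. The 16 clock genes summed to 323 to 419 CPM in ID2, against 275 to 305 in NUL and 277 to 315 in LAC, and on their first component, which carried 53.3% of their variance, ID2_39 scored lowest of all libraries at -8.74. With that component as a covariate the ID2 minus NUL difference of Foxo3 was 0.19 (edgeR adjusted p = 0.664), and the ID2 minus LAC differences were 0.49 for Foxo1 (0.0558), 0.23 for Foxo3 (0.263) and 0.79 for Trib1 (0.2). In that fit Gcgr was the 1 member called in ID2 against LAC (0.33, edgeR adjusted p = 0.0392). When the title number entered as a covariate, the call of Foxo1 against LAC held (log2 fold change 0.66, edgeR adjusted p = 0.0108), while Foxo3 (0.34, 0.147) and Trib1 (1.18, 0.110) lost theirs, and Foxo3 against NUL became 0.41 (0.168). The only ID2 animal numbered 200 or over, ID2_224, read 35.7 CPM of Foxo3, above the 25.6 to 30.6 CPM of NUL, and 41.9 CPM of Trib1, above the 9.78 to 20.3 CPM of LAC; a single animal gives no test. Clock phase and stage cannot be told apart further, since the hour of collection is not given in the sources used here. Markers of several cell types also moved between LAC and ID2. Kupffer and endothelial markers were each higher for 4 of 7 genes in ID2, stellate markers for 2 of 7, lymphocyte markers for 1 of 7, bile duct markers for 1 of 5 tested and pancreas markers for 6 of 12. The hepatocyte markers summed to 139500 to 153400 CPM in ID2 against 183800 to 228200 CPM in LAC, without overlap, with 1 of 8 called higher and 1 lower. Alb makes up most of this sum, and the median log2 fold change of the 8 markers was -0.09. The part of these cell types in the results was not tested. Without ID2_31, the library with pancreas transcripts, Foxo1 joined Foxo3 and 2 members were called against NUL.

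Between 4 and 6 days after weaning Foxo3 fell, from 30.5 ± 3.54 CPM (SD, n = 4) to 22.4 ± 1.62 CPM (n = 6). In the step before, from ID2 to ID4 no member was called by edgeR, where 1.49% of all genes were called; 3 members had an unadjusted p under 0.05, DESeq2 called 2 and limma on log2(TPM + 1) called 0. Foxo3 was 0.45 lower at ID4 (SE 0.12), with an edgeR adjusted p of 0.05 after rounding that did not pass, and the 4 ID4 libraries, at 34.6, 31.3, 30.3 and 26.0 CPM, lay below the ID2 libraries. Gcgr was 0.28 higher (SE 0.08, edgeR adjusted p = 0.0922), with 191 to 249 CPM at ID4 above the 175 to 188 CPM of ID2. Markers moved in this step too, with 6 of 7 Kupffer markers higher, 1 of 8 hepatocyte markers higher and 1 lower, and 1 of 16 clock genes lower. Their part in the Foxo3 and Gcgr values was not tested. From ID4 to ID6, Foxo3 alone was called, lower, among the 10 members, where 8.53% of all genes were called. It read 19.7 to 24.5 CPM in ID6 with a median of 22.5 CPM, below all ID4 libraries, a log2 difference of -0.45 (SE 0.10, edgeR adjusted p = 0.00613).

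The ID6 fall of Foxo3 held in all 10 fits without 1 animal, with a largest adjusted p of 0.0408. It was lost on log2(TPM + 1), where its value was -0.22 (limma adjusted p = 0.358), with the title number as a covariate (-0.31, edgeR adjusted p = 0.103), with the clock component (-0.25, 0.0905) and with effective gene length as an offset (-0.39, 0.125). Within animals numbered 200 or over, ID4_211 and ID4_215 read 30.3 and 26.0 CPM against 19.7 to 24.5 CPM in ID6. Erythroid markers moved in the same comparison, with 5 of 5 tested lower, and their part in the Foxo3 result was not tested.

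From ID6 to ID8 and from ID8 to REG edgeR called 0 of 10 members, where 4.12% and 0.0487% of all genes were called. Unadjusted p values under 0.05 were found for 1 (Foxo3) and 3 members (Gcgr, Pik3r1 and Trib1), and neither DESeq2 nor limma on log2(TPM + 1) called any. Foxo3 was 0.29 higher at ID8 than at ID6 (edgeR adjusted p = 0.126), with 27.4, 28.9 and 25.9 CPM. All ID8 animals had title numbers under 200 and all ID6 animals had numbers of 200 or over, so number and stage cannot be told apart in that step, and the same holds for ID8 against LAC, NUL and REG, whose animals all had numbers of 200 or over. Creb3l3 read 365 and 376 CPM in ID8_101b and ID8_98b and 177 CPM in ID8_14, the lowest value of any library. Without ID8_14 Creb3l3 was called in ID8 against ID6 (log2 fold change 0.55 in place of 0.28, edgeR adjusted p = 0.00586). In the same step 4 of 7 Kupffer markers were lower, at summed levels of 409.7 to 525 CPM in ID8 against 487 to 776 CPM in ID6, as were 4 of 5 erythroid markers tested, at 19.9 to 35.0 against 53.1 to 264 CPM, and 2 of 16 clock genes were higher and 2 lower. Their part in the calls of this step, those of Tsc1, Cebpa and Map2k1 included, and in the Creb3l3 result without ID8_14 was not tested.

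Against NUL the later stages gave no called member. The counts were 0 of 10 at ID4, ID6, ID8 and REG by edgeR, DESeq2 and limma on log2(TPM + 1), where edgeR called 4.25%, 1.08%, 0.499% and 0.0852% of all genes. The members with an unadjusted p under 0.05 numbered 1 at ID4 (Foxo1, log2 fold change 0.29), 1 at ID6 (Foxo3, -0.30), 0 at ID8 and 1 at REG (Trib1, 0.96). All 6 ID6 libraries of Foxo3 lay below the 4 NUL libraries, with an edgeR adjusted p of 0.156.

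At 4 weeks after weaning Trib1 had its highest stage mean, without passing the test against NUL. The REG libraries read 53.9, 48.5, 30.7 and 51.6 CPM, with a mean of 46.2 ± 10.6 (SD, n = 4), against 23.7 ± 12.8 CPM in NUL. The single high NUL library, NUL_226, lay inside the REG range and the other 3 below it. The log2 fold change was 0.96 (95% interval 0.22 to 1.71, unadjusted p = 0.0135 and adjusted p = 0.495 by edgeR), so it was not called. Against ID8, whose libraries lay below all REG libraries at 22.4 to 28.4 CPM, it was 0.82 (edgeR adjusted p = 0.549). The difference from NUL was 1.40 without NUL_226 (edgeR adjusted p = 0.233) and 0.64 with the clock component (0.656).

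**Figure D3:**
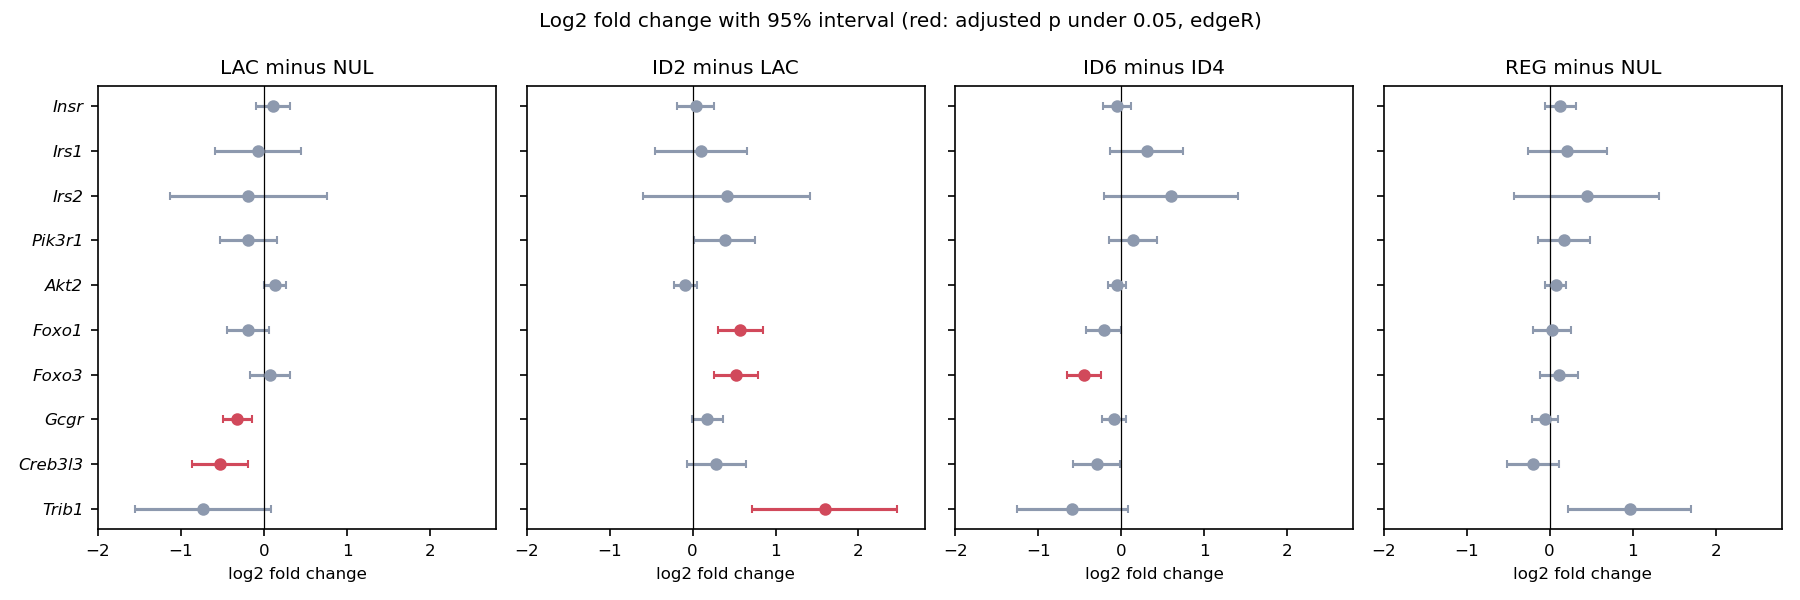
Log2 fold change (x axis) with its 95% interval for the 10 genes in 4 comparisons, red where the edgeR adjusted p was under 0.05. Gcgr and Creb3l3 are red and below 0 in LAC minus NUL, Foxo1, Foxo3 and Trib1 are red and above 0 in ID2 minus LAC, Foxo3 is red and below 0 in ID6 minus ID4, and none is red in REG minus NUL.

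Set against lactation, Gcgr was higher at each later stage from ID4 on. These 4 comparisons were added after the data had been seen, and they share the 3 LAC libraries. At ID4, 3 of 10 members were called, all higher, where 22.4% of all genes were called: Gcgr by 0.46 (SE 0.08, edgeR adjusted p = 0.000243), Creb3l3 by 0.54 (SE 0.17, 0.0183) and Foxo1 by 0.49 (SE 0.12, 0.00540). At ID6, 2 of 10 were called against 16.4% of all genes, Gcgr higher by 0.37 (edgeR adjusted p = 0.00117) and Foxo3 lower by a log2 fold change of -0.38 (0.0171). At ID8, 2 of 10 were called, both higher, against 12.8% of all genes, Gcgr by 0.44 (edgeR adjusted p = 0.00191) and Creb3l3 by 0.53 (0.0458), but title number and stage cannot be told apart between these groups. At REG, 2 of 10 were called, both higher, against 11.7% of all genes, Trib1 by 1.69 (edgeR adjusted p = 0.00818) and Gcgr by 0.27 (0.0384).

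The Gcgr means were 221.2 ± 24.3 CPM for the 4 livers of ID4 (SD), 208.8 ± 5.88 CPM for the 6 of ID6, 219 ± 16.2 CPM for the 3 of ID8 and 194 ± 14.8 CPM for the 4 of REG, and the lowest of these 17 libraries read 175 CPM, above the highest LAC library at 166 CPM. At ID2 the mean was 182.2 ± 6.48 CPM (n = 3), between LAC and NUL without overlapping either, at adjusted p values of 0.189 against LAC and 0.402 against NUL. The Gcgr calls at ID4, ID6 and ID8 held in every fit without 1 animal, and the call at REG was lost without each animal but REG_214 (largest edgeR adjusted p = 0.149 without LAC_240). The Trib1 call at REG was lost only without LAC_200 (0.0517), and it held in the 13 other alternatives. Foxo3 at ID6 lost its call without LAC_240 (edgeR adjusted p = 0.296) and in 6 of the 13 other alternatives, and the ID6 and LAC ranges overlapped. Its log2 fold change ran from -0.52 to -0.20 in fits without 1 animal. On log2(TPM + 1) and log2(TPM + 0.1) Foxo3 was not called (-0.14 and -0.16, limma adjusted p = 0.606 and 0.599), while Foxo1 was (0.31 and 0.40, 0.0354 and 0.0313). With DESeq2 Trib1 was also called in ID4 against LAC (0.96, adjusted p = 0.0491). Creb3l3 lost its call at ID8 without each animal but ID8_14 (largest 0.260 without ID8_98b) and at ID4 without LAC_200 (0.0543) and LAC_213 (0.0727). Its ID8 and LAC ranges overlapped, since ID8_14 read 177 CPM against 202.4 to 222.6 CPM in LAC. Its ID8 value ran from 0.35 to 0.79 in fits without 1 animal. The count of members called at ID8 fell to 1 in several other alternatives, listed in the closing section. Kupffer markers were higher than in LAC for 7 of 7, 7 of 7, 6 of 7 and 6 of 7 genes from ID4 to REG, and endothelial markers for 4, 5, 4 and 2 of 7. Stellate markers were higher for 4, 3, 3 and 3 of 7 and lymphocyte markers for 3, 5, 2 and 2 of 7, while 5 of 5 erythroid markers were lower at ID6 and at ID8. The part of these cell types in the results was not tested.

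Along the insulin arm itself, Insr, Irs1, Irs2, Pik3r1 and Akt2 were called in none of the 15 comparisons. Insr, the receptor, ranged from 82.8 CPM (NUL_220) to 115 CPM (ID2_31) with a median of 97.4 CPM over the 27 libraries, and every stage overlapped its NUL range. The kinase Akt2 ranged from 107 to 126 CPM with a median of 116 CPM. Its log2 fold changes lay between -0.11 and 0.13 over the 15 comparisons, and the 95% intervals lay within -0.23 and 0.26. For Insr the log2 fold changes lay between -0.15 and 0.17 and the intervals within -0.37 and 0.38. Shifts larger than these bounds lie outside all of these intervals.

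For the docking proteins the intervals were far wider. Irs1 ranged from 12.0 to 27.5 CPM, with ID6 alone spanning 12.0 to 27.4 CPM, and REG_203 read 16.3 CPM where the other REG libraries read 26.0 to 27.5 CPM. Irs2, which rises in fasting liver, read 16.6, 43.0, 88.9 and 27.5 CPM in the 4 REG libraries, and 26.8 to 61.4 CPM in ID6 with a median of 51.6 CPM. Its differences of 0.61 from ID4 to ID6 (95% interval -0.20 to 1.41) and -0.84 from ID6 to ID8 (-1.75 to 0.06) did not pass. Pik3r1, the regulatory subunit that docks to Irs proteins, had its highest stage mean at ID2, 73.9 CPM, and its lowest at ID8, 54.9 CPM. It reached an unadjusted p of 0.0384 for ID2 against LAC (log2 fold change 0.39, edgeR adjusted p = 0.145), of 0.0400 for ID4 against ID2 (-0.36, 0.327), of 0.0411 for REG against LAC (0.36, 0.176) and of 0.0243 for REG against ID8 (0.40, 0.489). In fits without 1 animal these log2 fold changes ran from 0.22 to 0.52, from -0.49 to -0.18, from 0.28 to 0.48 and from 0.32 to 0.52.

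Other genes of the insulin cascade, a list of 32 genes beyond the members, were called for 7 of 32 in the joint test, against 27% of all genes. The genes named in these lists beyond those of the heat map, Pik3ca, Inppl1, Gnas, Adcy4, Hdac7, Pde4b, Cidec, Nr4a1, Apoa4, Apoc2, G6pc and Igfbp1, were chosen after their values were seen and were not run under the alternatives. In ID2 against LAC 3 of 32 were lower, against 16.1% of all genes: Pik3ca (-0.29), the catalytic partner of Pik3r1, Inppl1 (-0.32), a lipid phosphatase, and Rps6kb1 (-0.30), the ribosomal S6 kinase. Rps6kb1 lost its call without ID2_224, ID2_31 and LAC_213 (largest edgeR adjusted p = 0.0894) and in 8 of 13 other alternatives. Akt1 was higher at ID4 than in NUL by 0.41 (SE 0.10, edgeR adjusted p = 0.0121), at 106 ± 4.48 against 79.6 ± 7.02 CPM (SD, n = 4 and 4), a call lost without NUL_221 (0.0601) and in 4 of 13 other alternatives. Grb10, an adaptor that inhibits the insulin receptor, was lower at ID6 than in NUL, at 20.99 ± 2.21 against 28.6 ± 2.78 CPM (log2 fold change -0.45, edgeR adjusted p = 0.0264), and lower at ID6 than at ID4 (-0.36, 0.0312). The first call was lost without ID6_201, ID6_216, NUL_220, NUL_221 and NUL_226 and in 3 of 13 other alternatives, and the second without ID4_13, ID4_15, ID4_211, ID6_201, ID6_209 and ID6_216 and in 6 of 13, title number included (largest edgeR adjusted p = 0.126 and 0.144 without 1 animal). Tsc1, an inhibitor of the mTOR pathway, was lower at ID6 than at ID4 by a log2 fold change of -0.30 and higher at ID8 than at ID6 by 0.41. These calls were lost without ID4_13 and ID4_211 and without ID8_101b and ID8_98b, and in 6 and 5 of 13 other alternatives, with the title number and the clock covariate among them. Markers of other cells moved in these comparisons too. Kupffer markers were higher than in NUL for 5 of 7 genes at ID4 and at ID6, at summed levels of 605.6 to 665.7 and 487 to 776 CPM against 354.5 to 457 CPM, and 4 of 5 erythroid markers tested were lower at ID6 than in NUL, at 53.1 to 264 against 335 to 712 CPM. Stellate markers and bile duct markers had 1 gene each lower at ID4 than in NUL. Their part in these results was not tested.

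Other genes of the glucagon cascade were called for 10 of 32 in the joint test, against 27% of all genes. In LAC against NUL 2 of 32 were higher, the stimulatory G protein gene Gnas (0.24) and the calcium channel Itpr1 (0.38), and 2 were lower, Adcy4 (-0.94) and Hdac7 (-0.55), a share near the 11.2% of all genes called. Itpr1 lost this call without LAC_213, LAC_240, NUL_220 and NUL_221 and in 5 of 13 other alternatives, and without LAC_240 its value was 0.25 (edgeR adjusted p = 0.241). In ID2 against LAC 5 of 32 were called, a share near the 16.1% of all genes. The 2 higher genes were the adenylyl cyclase Adcy9 (0.68) and the phosphodiesterase Pde4b (0.94), and the 3 lower genes were Atf4 (-0.74), Hdac5 (-0.59) and Itpr1 (-0.46), the last of which lost its call without LAC_240 (edgeR adjusted p = 0.0918) and on both log2 TPM scales. Hdac5, a deacetylase that acts with Foxo factors at gluconeogenic genes, read 39.01 ± 5.10 CPM at ID2 (SD, n = 3), below 49.6 ± 3.40 in NUL (n = 4) and 58.9 ± 1.54 in LAC (n = 3). Its call against LAC held in all alternatives, and that against NUL was lost without ID2_39, NUL_220, NUL_221 and NUL_226 (largest edgeR adjusted p = 0.264) and in 8 of 13 others. Atf4, a factor of the amino acid response, read 102 ± 14.1 CPM in LAC and 61.1 ± 10.6 CPM in ID2.

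Of 22 listed transcriptional targets, 11 passed the joint test, against 27% of all genes. In LAC against NUL 3 of 22 were higher and 2 lower, against 11.2% of all genes, with a list median of 0.05. Fasn, fatty acid synthase, rose from 352 ± 99.4 to 1509 ± 355 CPM (SD, n = 4 and 3; log2 fold change 2.10, SE 0.52, edgeR adjusted p = 0.0120), and Pklr, liver pyruvate kinase, from a range of 202.9 to 264.6 CPM in NUL to 578 ± 7.15 CPM (1.36, SE 0.28, 0.00281). Pck1, the gluconeogenic carboxykinase, fell from 1643 ± 487 to 642 ± 256 CPM (-1.35, SE 0.42, edgeR adjusted p = 0.0427) and Sds, serine dehydratase, from 208 ± 28.6 to 135 ± 3.39 CPM (-0.62, SE 0.18, 0.0285). Fasn and Pklr held their calls without each animal in turn, while Pck1 and Sds lost theirs in some of the 7 fits. Pck1 lost its call without LAC_200, LAC_213, NUL_226 and NUL_227 (largest edgeR adjusted p = 0.199) and in 4 of 13 other alternatives, and Sds without each animal but NUL_221 and NUL_226 (0.102) and in 2 of 13.

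In ID2 against LAC 6 of 22 targets were higher and 4 lower, against 16.1% of all genes. Pck1 rose to 3046 ± 782 CPM (log2 fold change 2.25, edgeR adjusted p = 0.00242), Sds to 328 ± 57.8 CPM (1.28, 0.000129), and the coactivator Ppargc1a from 5.34 ± 0.98 to 11.6 ± 0.26 CPM (1.12, 0.00451). Fbp1, fructose bisphosphatase, rose by 0.44, a call lost without ID2_39 and each LAC animal (largest edgeR adjusted p = 0.197) and with the title number or clock covariate. Cidec and Nr4a1 rose by 1.54 and 2.37. Fasn fell to 261 ± 43.7 CPM (log2 fold change -2.53) and Pklr to 181 ± 18.8 CPM (-1.68). Pdk4, a kinase that blocks pyruvate oxidation, fell from 22.0 ± 1.76 to 8.29 ± 1.88 CPM (-1.40), a call lost with the clock covariate. G6pc, the glucose-6-phosphatase gene, was not called in any comparison, with 146 to 482 CPM in LAC and 348 to 643 CPM in ID2 (log2 fold change 0.85, SE 0.47, edgeR adjusted p = 0.244). Igfbp1 was not called either.

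From ID4 to ID6, 3 of 22 targets rose, Fasn by 1.86, Pklr by 1.16 and Pdk4 by 0.92, and 4 fell, Ppargc1a (-0.81), Fbp1 (-0.37), Apoa4 (-0.87) and Apoc2 (-0.72), against 8.53% of all genes. Pklr kept its call in all alternatives. The Pdk4 call was lost without each animal but ID6_201 and ID6_216 (largest edgeR adjusted p = 0.0955) and in 8 of 13 other alternatives. Fbp1 lost its call without ID4_13, ID4_211, ID4_215, ID6_209 and ID6_232 (0.0710) and in 5 of 13, and Fasn without ID4_13 and ID4_215 (0.0572) and with the title number. Foxo3 fell in the same step, as given above. In the next step, from ID6 to ID8, 2 of 22 targets were called, both higher, against 4.12% of all genes. These were Fbp1 and Sds, with log2 fold changes of 0.40 to 0.66 and 0.33 to 0.83 in fits without 1 animal. Title number and stage cannot be told apart there.

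Among 9 genes linked to Trib1, 4 passed the joint test, against 27% of all genes. Trib3, a related pseudokinase that binds Akt, was higher at ID2 (7.18 ± 1.53 CPM, n = 3) and ID4 (6.68 ± 1.34, n = 4) than in NUL (4.11 ± 0.81, n = 4), at edgeR adjusted p values of 0.0266 and 0.0342, and it fell from ID4 to ID6 by a log2 fold change of -0.78 (0.00589). The fall held in all alternatives. The call at ID2 was lost without ID2_224, ID2_31, NUL_220, NUL_221 and NUL_226 (largest edgeR adjusted p = 0.161) and in 7 of 13 others, and that at ID4 without ID4_15, NUL_220, NUL_221 and NUL_226 (0.135) and in 6 of 13. Trib2 was lower in LAC than in NUL, at 1.13 ± 0.19 against 2.26 ± 0.28 CPM (log2 fold change -0.99, edgeR adjusted p = 0.00533), a call lost on both log2 TPM scales (limma adjusted p = 0.119 and 0.0809) and with effective gene length as an offset (edgeR adjusted p = 0.121). Cebpa, whose protein Trib1 helps to degrade, read 475 ± 34.2 CPM at ID8 (SD, n = 3) against 330.0 ± 28.2 CPM at ID6 (n = 6; log2 fold change 0.53, edgeR adjusted p = 0.0213). Its call was lost without ID6_209, ID8_101b and ID8_98b (largest edgeR adjusted p = 0.104) and in 5 of 13 other alternatives, with the title number, the clock covariate and both log2 TPM scales among them, where the value was as low as 0.15. Map2k1, a kinase that binds tribbles proteins, was lower at ID8 than at ID6 by a log2 fold change of -0.28, a call lost in 7 of 9 fits without 1 animal (all but those without ID6_218 and ID6_230) and in 8 of 13 other alternatives.

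**Figure D4:**
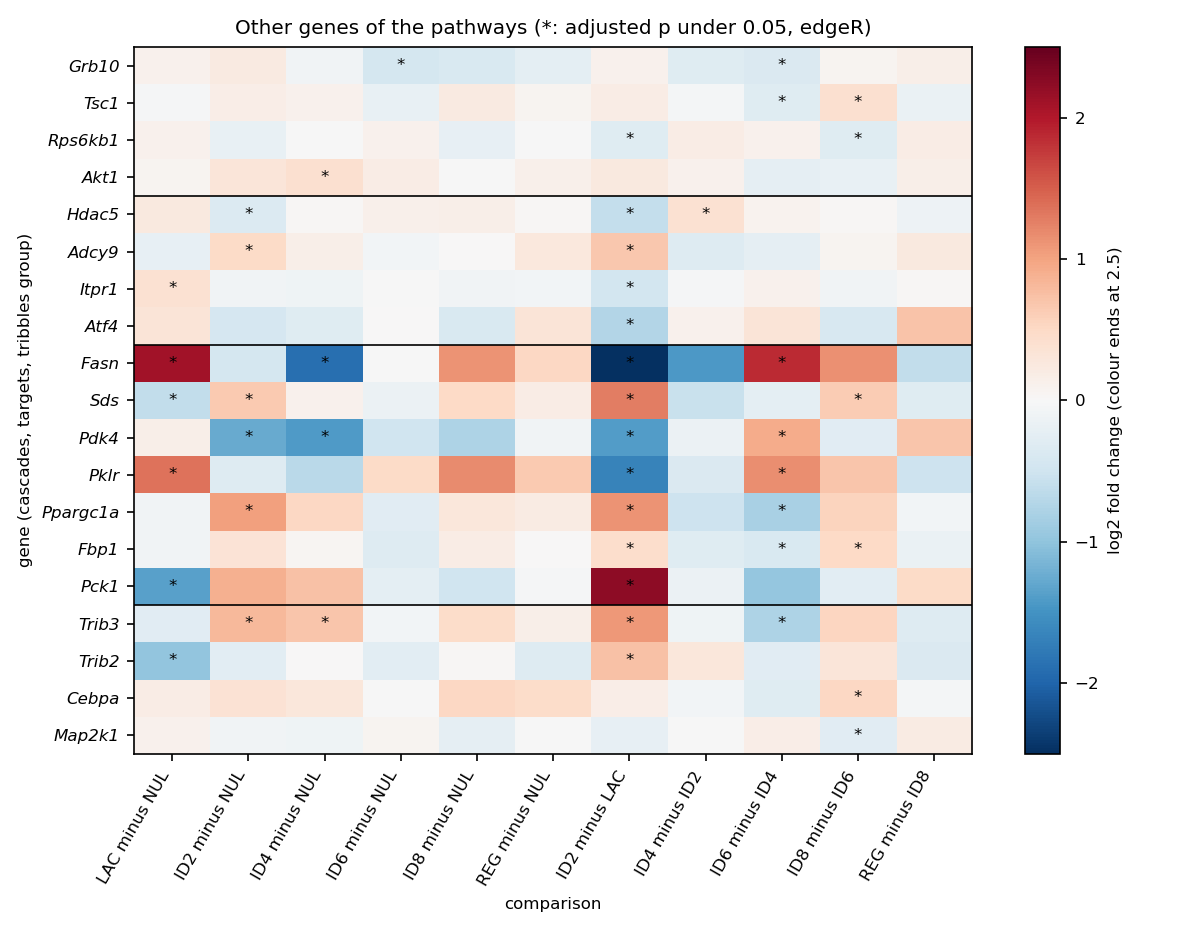
Log2 fold change (colour) of the named genes of the insulin cascade, glucagon cascade, target and tribbles lists (rows, separated by lines) in 11 comparisons (columns), with an asterisk where the edgeR adjusted p was under 0.05. The target genes carry the strongest colours, with Fasn and Pklr up and Pck1 and Sds down in LAC minus NUL and the reverse in ID2 minus LAC.

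The hormones themselves are made in pancreatic islets. Ins1, Ins2 and Gcg had 0 counts in most libraries. The highest Ins2 count was 73, in ID6_209 (1.06 CPM), followed by 63 in NUL_227 and 61 in ID8_98b, and the highest Gcg count was 14, in ID6_209. The 6 islet genes summed to at most 2.02 CPM in any library, 2 of 6 had enough counts to be tested, and neither was called in any comparison. Islet transcripts and pancreas enzyme transcripts did not peak in the same library, but they occurred together in some. The library with the most enzyme transcripts, ID2_31, held 26 counts of Ins2. In ID6_209 all listed enzyme genes, Cpa1 included, had 0 counts except Amy2a5 (1517.75) and Cela1 (945). Both kinds were present in ID8_98b (61 counts of Ins2 and 169 of Cpa1) and in ID4_15 (13 and 510).

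Across the 27 libraries, which share stages and depth, member pairs were compared by Pearson's r of log2 CPM as a description. The highest values were 0.632 for Pik3r1 and Trib1, 0.631 for Gcgr and Creb3l3 and 0.552 for Foxo3 and Trib1, and the lowest was -0.574 for Irs2 and Akt2. Among 10549 genes compared in the same way, the closest to Foxo3 were Tor1aip2 (0.900), Narf (0.873) and Smarca2 (0.867), and the closest to Gcgr were Clec4g (0.854), Aspdh (0.844) and Colec11 (0.834). Clec4g is a gene of the endothelial check list. Creb3l3 was closest to Ldha (0.874), Tnfaip8l1 (0.855) and Rtf2 (0.847), and Trib1 to Mcm10 (0.855) and Zcchc24 (0.737). For Foxo1 the closest were Shb (0.741), Klf15 (0.734) and Ang (0.715), and for Irs2 they were Irf2bp2 (0.702), Igfbp1 (0.673) and Jmjd1c (0.667). Insr was closest to Akap9 (0.755), Lrp6 (0.747) and Pcnx (0.742), and Irs1 to Cramp1l (0.826), Yeats2 (0.811) and Zfp398 (0.770). Akt2 was closest to Uck2 (0.799), Gpr180 (0.740) and Nudt9 (0.716), and Pik3r1 to Hs6st1 (0.798), Rtf1 (0.694) and Usp42 (0.683).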

How the data were processed

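Bulk RNA of 27 mouse livers was measured, 1 library per animal. The authors deposited, per the file headers, 1 table per library with expected counts and TPM per gene. The submitters' processing notes name STAR 2.6.1a, RSEM 1.3.1 and the mouse build mm10; the annotation, trimming and use of strand are not given in the sources used here. Gene names were matched by identifier to GENCODE M21 on GRCm38, and the 193 identifiers without a symbol held 0.0147% of counts.

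Expected counts, as deposited by the authors, were rounded to whole numbers. Genes were kept by filterByExpr, scaled by TMM and fitted over all 27 libraries with edgeR 4.0.16 (quasi-likelihood, R 4.3.3), with Benjamini-Hochberg adjustment over 16428 genes and two-sided tests. The biological coefficient of variation was 0.19. Intervals are at the 95% level for the difference between stage means, with a standard error that draws on the spread between animals. DESeq2 1.42.0, and limma 3.58.1 on log2(TPM + 1), were alternatives, as were other filters, covariates and fits without each animal. The procedure was tested on simulated counts with known changes in LAC. Those changes were larger than the ones reported here for most members called, and no clock or title number effect was simulated. The test therefore does not cover changes of the smaller sizes. Comparisons of later stages with LAC, the number-of-runs covariate and fits without ID2_31 were chosen after seeing the data.

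The members and all gene lists were chosen with earlier results of these data known. All 10 members were followed, those not called by their ranges and intervals. Pathway genes were named by a rule, up to 4 per list and 8 for the transcriptional targets, taking those called in the most of 11 comparisons with ties broken by the smaller joint p; others named are stated in the text as chosen after their values were seen. For each member the 3 genes with the highest Pearson's r over the 27 libraries were named. A few genes that these rules name are not reported here.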

Additional observations from a re-analysis of the deposited data

Results flagged for a closer look

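In each stage of 4 to 10 libraries the library farthest from the rest was compared with the spread of its group, over 40 combinations of gene and stage, and 3 stood apart; chance gives about 1 in 20. Irs1 in REG_203 read 16.31 CPM where the other 3 libraries read 26.01 to 27.51 CPM. Foxo1 in NUL_220 read 25.41 CPM where the others read 19.36 to 20.38 CPM. Foxo1 in REG_239 read 19.99 CPM where the others read 22.04 to 22.25 CPM, a narrow range.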

How the results depend on the processing

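No paired analysis was possible because the animal numbers in the titles are not shared between stages. Counts are of called members out of 10. The joint test gave 4, and 2 at an adjusted p under 0.01 (4 to 5 without 1 animal). LAC against NUL gave 2, 1 with no filter, 0 at an adjusted p under 0.01 and 0 to 2 without 1 animal. ID2 against NUL gave 1, 0 on log2(TPM + 1), log2(TPM + 0.1), with the title number and with the clock covariate, 2 without ID2_31, and 0 to 2 without 1 animal. ID2 against LAC gave 3, 1 with the title number (Foxo1), 1 with the clock covariate (Gcgr, in place of the 3), 3 with only the groups compared (Creb3l3 in place of Foxo3), and 1 to 3 without 1 animal. ID4 against ID2 gave 0, 2 with DESeq2, 1 with no filter, with CPM of at least 1 in 3 libraries or with only the groups compared, and 0 to 1 without 1 animal. ID6 against ID4 gave 1 and 0 on both TPM scales, with the title number, clock or effective length, and 1 without each animal. ID8 against ID6 gave 0 to 1 without 1 animal. Against LAC, ID4 gave 2 to 4 without 1 animal. ID6 gave 2, 2 on both TPM scales (Foxo1 in place of Foxo3), 1 with only the groups compared, clock, effective length or an adjusted p under 0.01, and 1 to 2 without 1 animal. ID8 gave 2, 1 with RLE size factors, no filter, both TPM scales, only the groups compared, title number, effective length, number of runs or an adjusted p under 0.01, and 1 to 2 without 1 animal. REG gave 2, 1 with no filter, only the groups compared, number of runs or an adjusted p under 0.01, and 0 to 2 without 1 animal. The causes were not tested. Directions reversed for uncalled log2 fold changes. In LAC against NUL, Insr was 0.11, but -0.024 on log2(TPM + 1) and -0.026 on log2(TPM + 0.1); Foxo3 was 0.07, but -0.10, -0.11, -0.041 (clock) and -0.026 (effective length), with -0.10 to 0.22 without 1 animal. Irs1 was -0.07, but 0.040 with clock and -0.28 to 0.046 without 1 animal, and Irs2 was -0.19, but 0.016 with clock and -0.64 to 0.10 without 1 animal. In ID2 against NUL, Trib1 was 0.86, but -0.23 with clock. On log2(TPM + 0.1) the median of all genes moved by 0.126 in ID6 against ID4 and by -0.111 in ID8 against ID6. Groups of 3 to 6 animals limit the precision, most for Irs1, Irs2 and Trib1.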
